A study of Mus musculus with 12 samples.

Results

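Livers of Taconic mice that had shared cages with Jackson mice (CoTAC) were compared with livers of their Jackson cage mates (CoJAX), 3 libraries against 3. Genes were taken with a deposited level of at least 1 RPKM in at least 3 of these 6 libraries, which left 11416 of the 23909 named genes. RPKM scales the reads of a gene to its length and to the size of the library. All mice were C57BL/6 and were bought from either Jackson or Taconic. They spent 4 weeks with mice of their own vendor (groups JAX and TAC) or of the other vendor (CoJAX and CoTAC), and liver RNA was then sequenced in 3 libraries per group, 12 in all. The series asks how differing gut microbes bear on gene expression in the liver. The labels give no sex, age, cage, litter or substrain, and do not say that each library came from a different animal. The p-values therefore describe the spread among these libraries, and part of it may be technical.

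Mice eat droppings, so animals that share a cage exchange gut bacteria, whereas each keeps the genome of the colony it was born in. Blood from the gut reaches the liver through the portal vein and passes along sinusoids lined by endothelial cells, Kupffer cells and stellate cells before it meets the hepatocytes. Hepatocytes sense bile acids, lipids and foreign compounds through nuclear receptors such as CAR and PXR, which induce cytochrome P450 genes, and through the factor NRF2, which induces glutathione enzymes. They also make the acute phase proteins of inflammation.

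The 6 libraries held an estimated 2220000 to 3840000 reads in CoJAX and 3240000 to 3760000 in CoTAC. At these depths 1 read changes the value of a transcript 2000 nucleotides long by 0.13 to 0.225 RPKM. The albumin gene Alb stood for an estimated 1.95 to 1.97 reads per base in each of the 6 libraries. Its RPKM fell as depth rose, from 884 in CoJAX 1, the shallowest, to 512 in CoJAX 3, the deepest. The P450 genes Cyp2e1 and Cyp3a11, abundant as well, also fell from CoJAX 1 to CoJAX 3. Cyp2e1 went from 750.5 to 475 RPKM and Cyp3a11 from 659 to 426 RPKM. What set these levels, and how many other abundant genes share the fall, was not tested. Of 14 hepatocyte markers 13 were listed, none of them at 0 throughout, and 10 of 17 markers of fat, pancreas and gut were at 0 in all 6 cohoused libraries. The summed level of those 17 was 234, 181 and 189 RPKM in CoJAX and 136, 182 and 120 RPKM in CoTAC. Fabp2, a fatty acid binding protein of the gut, held 157, 121 and 124 RPKM of it in CoJAX and 94.4, 117 and 70.5 RPKM in CoTAC, and the part of these levels in other differences was not tested. The 888 genes whose mean lay above 25% of the Alb level had a median CoTAC minus CoJAX difference of -0.24 on the log2 scale, against 0.01 over all 11416 genes. The difference also rose with transcript length, by 0.078 per doubling, so that small negative values of abundant genes and of short genes have this shift beside them.

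Few genes separated the cage mates past the threshold. With limma-trend on log2(RPKM + 0.5) and Benjamini-Hochberg adjustment over 11416 genes, 11 passed an adjusted p of 0.05, or 0.0964%. Of these 3 were higher in CoTAC (0.0263% of all genes tested) and 8 were lower (0.0701%). Many more genes leaned one way without passing. At an unadjusted p under 0.05 there were 1255 genes, 11.0% of those tested, of which 546 (4.78%) were higher and 709 (6.21%) lower. All 3 CoTAC libraries lay above all 3 CoJAX libraries for 9.17% of genes and below them for 10.1%. The count rested on single libraries. It was 6 without JAX 3, 4 without CoJAX 1, 3 without CoJAX 3, 6 without CoTAC 1, 3 without CoTAC 3 and 245 without CoTAC 2, and 1 (Wdfy1) when the 6 cohoused libraries were fitted alone.

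**Figure D1:**
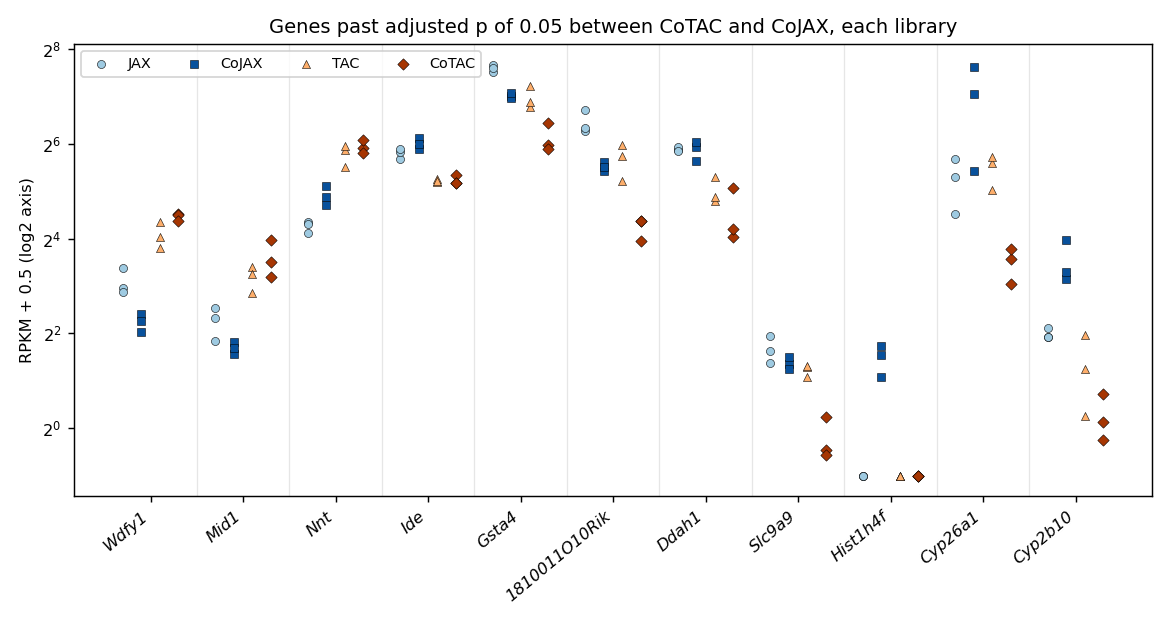
RPKM + 0.5 on a log2 axis for the 11 genes past an adjusted p of 0.05 between CoTAC and CoJAX, with 1 point for each of the 12 libraries and a marker for each group. In all 11 genes the 3 CoTAC libraries lie on one side of the 3 CoJAX libraries, and for Hist1h4f every library outside CoJAX is listed at 0.

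The 3 genes that were higher in CoTAC included 2 that are known to differ between C57BL/6 substrains. Wdfy1 encodes an adaptor protein of early endosomes that takes part in Toll-like receptor signalling. It was listed at 4.82, 3.60 and 4.28 RPKM in CoJAX 1 to 3 and at 22.5, 22 and 20.2 RPKM in CoTAC 1 to 3. The groups lay far apart, with means of 4.23 ± 0.615 and 21.6 ± 1.21 RPKM (SD, n = 3 each), a 5.09-fold ratio. The log2 difference was 2.23 ± 0.18 (SE, limma-trend adjusted p = 0.00038). The separately housed mice differed the same way, at 7.96 ± 1.68 RPKM in JAX and 16.5 ± 3.31 RPKM in TAC.

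Nnt, the nicotinamide nucleotide transhydrogenase of mitochondria, has lost part of its sequence in the C57BL/6J substrain. Its level was 25.5, 33.9 and 28.8 RPKM in CoJAX and 59.6, 67.3 and 55.4 RPKM in CoTAC. Every CoTAC library was above every CoJAX library (1.04 ± 0.14, limma-trend adjusted p = 0.0167), and the ratio of the means was 2.07. JAX and TAC averaged 18.7 ± 1.55 and 54.7 ± 8.52 RPKM. Ide, the insulin-degrading metalloprotease, went the other way. It was listed at 59.1, 69.0 and 63.6 RPKM in CoJAX against 39.8, 35.5 and 35.8 RPKM in CoTAC (-0.78 ± 0.10, limma-trend adjusted p = 0.0101), and at 55.3 ± 4.28 and 36.7 ± 0.870 RPKM in JAX and TAC. Of 12 genes listed as differing between substrains 7 were tested, 2 rose, 1 fell and 4 did not pass. That list was put together with results of these libraries known, so its count is no independent evidence of a substrain difference. Among the 4, Entpd4, a Golgi nucleotidase named after its values were seen, was at 38.9, 48.3 and 52.1 RPKM in CoJAX and at 32.3, 27.7 and 30.2 RPKM in CoTAC (-0.61 ± 0.14, limma-trend adjusted p = 0.172).

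Mid1, which encodes a ubiquitin ligase bound to microtubules and spans the edge of the pseudoautosomal region in C57BL/6 mice, was the third gene higher in CoTAC. It was listed at 3.02, 2.46 and 2.75 RPKM in CoJAX and at 10.8, 15.2 and 8.65 RPKM in CoTAC. The groups did not overlap, and the log2 difference was 1.86 ± 0.24 (limma-trend adjusted p = 0.0115). Housed apart, JAX averaged 4.31 ± 1.11 RPKM and TAC 8.61 ± 1.75 RPKM, which lay just outside the threshold (0.93 ± 0.24, limma-trend adjusted p = 0.0503).

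On the log2(RPKM + 0.5) scale, and among the genes that passed and were listed above 0 in both groups, the largest falls in CoTAC were in a pair of cytochrome P450 genes. Cyp2b10 encodes the P450 most used as a readout of CAR activity in mouse liver. It was listed at 8.37, 9.36 and 15.1 RPKM in CoJAX and at 1.16, 0.60 and 0.347 RPKM in CoTAC. The highest CoTAC value, which stood for about 7.2 reads, was below the lowest CoJAX value, which stood for about 33.9 reads. The means were 10.96 ± 3.66 and 0.701 ± 0.414 RPKM, a 15.6-fold ratio, with a log2 difference of -3.26 ± 0.39 (limma-trend adjusted p = 0.00912). The means of JAX (3.47 ± 0.294 RPKM) and TAC (2.0 ± 1.36 RPKM) lay between those of the cohoused groups and did not differ past the threshold (-0.83 ± 0.39, limma-trend adjusted p = 0.203). The change in the vendor difference with cohousing was -2.44 ± 0.56 and did not pass (limma-trend adjusted p = 0.247). Cyp2b genes are close copies of each other, so reads could be shared between them; Cyp2b13 was listed at 0 in all 12 libraries and Cyp2b9 at 0 in the 6 cohoused ones.

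Cyp26a1 encodes the enzyme that inactivates retinoic acid, and retinoic acid induces it through retinoic acid receptors. Its level was 197, 42.3 and 132 RPKM in CoJAX and 11.4, 13.2 and 7.74 RPKM in CoTAC. CoJAX 2 was low within its group and still lay above every CoTAC library. The means were 124 ± 77.7 and 10.8 ± 2.79 RPKM, an 11.5-fold ratio, and the log2 difference was -3.23 ± 0.47 (limma-trend adjusted p = 0.0264). Housed apart, JAX averaged 37.5 ± 14.4 RPKM and TAC 44.1 ± 10.7 RPKM, a difference of 0.28 ± 0.47 (limma-trend adjusted p = 0.74). The change in the vendor difference with cohousing was -3.51 ± 0.67, and it did not pass either (limma-trend adjusted p = 0.194).

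Of 17 tested genes of retinoid metabolism 1, Cyp26a1, fell, 0 rose and 16 did not pass. The list median was -0.30, against 0.01 over all genes, 15 of 17 values were negative, and 6 of its members lay above 25% of Alb. The list median was -0.13 under quantile normalization and -0.16 with depth as a covariate. At an unadjusted p under 0.05 there were 4 lower and 1 higher, against 6.21% and 4.78% of all genes. The paralog Cyp26b1, named after its values were seen, was at 6.23, 0.890 and 13.1 RPKM in CoJAX and 1.66, 1.84 and 0.775 RPKM in CoTAC, where CoJAX 2 lay within the CoTAC range (-1.43 ± 0.64, limma-trend adjusted p = 0.446). Rdh16, a retinol dehydrogenase chosen the same way, was at 38.7, 39.8 and 52.2 RPKM against 22, 33.3 and 19.6 RPKM (-0.82 ± 0.22, limma-trend adjusted p = 0.234). Lrat, which esterifies retinol in stellate cells, was at 6.68, 3.32 and 7.5 RPKM against 2.31, 4.0 and 1.69 RPKM, and its groups overlapped (-0.995 ± 0.33, limma-trend adjusted p = 0.336).

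The promoter window of Cyp26a1 is shown because this gene fell in CoTAC and is a textbook target of retinoic acid receptors, and that of Rarb because it is the one other tested gene of the retinoid list whose window held the same kind of repeat. Each window runs from 250 bases before to 50 bases after the RefSeq start on build GRCm38.p6, 5′ to 3′ on the strand of the gene. Cyp26a1 is at chr19:37697558-37697857 (+ strand) and Rarb at chr14:16575427-16575726 (- strand). Capitals mark a pair of 6-letter elements, each AGTTCA or AGGTCA or the same letters opening with G, in the same direction with any 5 bases, NNNNN, between them, searched on both strands.
Cyp26a1: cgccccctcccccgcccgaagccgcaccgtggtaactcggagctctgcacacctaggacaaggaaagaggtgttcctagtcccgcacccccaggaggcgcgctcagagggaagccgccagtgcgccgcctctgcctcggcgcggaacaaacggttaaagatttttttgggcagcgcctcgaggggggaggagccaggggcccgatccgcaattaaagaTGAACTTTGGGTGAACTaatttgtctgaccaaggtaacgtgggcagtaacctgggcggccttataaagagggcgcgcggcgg
Rarb: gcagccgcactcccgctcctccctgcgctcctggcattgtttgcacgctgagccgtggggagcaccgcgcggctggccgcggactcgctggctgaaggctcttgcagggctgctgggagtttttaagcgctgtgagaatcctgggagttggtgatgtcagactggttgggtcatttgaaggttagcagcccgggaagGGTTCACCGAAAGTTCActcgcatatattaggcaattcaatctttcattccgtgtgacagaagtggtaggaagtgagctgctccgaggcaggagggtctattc
In Cyp26a1 the repeat is on the opposite strand and begins 32 bases before the start, and in Rarb it is on the same strand and begins 53 bases before it. Of 32851 RefSeq windows of this length 32 held such a repeat, or 0.0974%. A match describes letters and no bound factor. Rarb, a retinoic acid receptor, was at 1.37, 1.02 and 3.07 RPKM in CoJAX and 0.784, 1.42 and 0.585 RPKM in CoTAC, which overlapped (-0.64 ± 0.35, limma-trend adjusted p = 0.516). The third tested gene with a repeat, the biliverdin reductase gene Blvrb, was at 355, 299 and 270 RPKM against 227, 257 and 247 RPKM (-0.33 ± 0.16, limma-trend adjusted p = 0.484). Rarb and Blvrb were named after their values were seen.

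Ddah1 and Gsta4 also fell in CoTAC. Ddah1 breaks down asymmetric dimethylarginine, an inhibitor of nitric oxide synthases, and was listed at 49.3, 60.6 and 65.3 RPKM in CoJAX and at 16.0, 33.1 and 17.9 RPKM in CoTAC. Its log2 difference was -1.43 ± 0.23 (limma-trend adjusted p = 0.046), and JAX and TAC averaged 58.6 ± 1.87 and 31.7 ± 6.14 RPKM. Gsta4 encodes a glutathione transferase that clears lipid peroxidation products. It was at 128, 125 and 135 RPKM in CoJAX and 62.2, 85.9 and 58.4 RPKM in CoTAC (-0.92 ± 0.15, limma-trend adjusted p = 0.0488), and at 193 ± 10.03 and 125 ± 20.8 RPKM in JAX and TAC. In both genes CoTAC 2 was the highest CoTAC library, and it was also the CoTAC library with the highest summed level of sinusoidal endothelial markers, given further on. The part of that in these 2 genes was not tested. Gsta genes are near-identical in places, so Gsta4 is uncertain as a single gene.

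Of 32 tested NRF2 targets and glutathione genes, 1 fell, 0 rose and 31 did not pass. The list median was -0.29 and 30 of 32 values were negative, with 8 members above 25% of Alb, where the median over all such genes was -0.24. Under quantile normalization the list median was -0.15, and with depth as a covariate it was -0.19. At an unadjusted p under 0.05 there were 11 lower and 0 higher, against 6.21% and 4.78% of all genes. Gsta2, a glutathione transferase named after its values were seen, was just outside the threshold. It was listed at 58.3, 46.1 and 57.3 RPKM in CoJAX and at 17.5, 26.7 and 9.42 RPKM in CoTAC, with no overlap (-1.68 ± 0.28, limma-trend adjusted p = 0.0595). Without CoTAC 2 it passed at -2.02 (limma-trend adjusted p = 0.0022). It was 1 of 5 list members that then passed, all lower, against 1.53% of all genes passing as lower in that fit. CoTAC 2 was left out after its values were known, so these calls add no support. Nqo1, a quinone reductase and classic NRF2 target, was at 7.57, 8.38 and 8.04 RPKM against 4.93, 5.59 and 4.10 RPKM (-0.67 ± 0.18, limma-trend adjusted p = 0.236). Gclc, the catalytic subunit of glutathione synthesis, was at 130, 102 and 118 RPKM against 69.8, 91.2 and 103 RPKM (-0.42 ± 0.15, limma-trend adjusted p = 0.344), and its groups overlapped.

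Of 21 tested CAR and PXR targets, 1, Cyp2b10, fell, 0 rose and 20 did not pass. The median was -0.32, 17 of 21 values were negative, and 10 members lay above 25% of Alb. Under quantile normalization the list median was -0.19. At an unadjusted p under 0.05 there were 10 lower and 0 higher, against 6.21% and 4.78% of all genes. Cyp2c54, a P450 of a near-identical family, was at 249, 201 and 178 RPKM in CoJAX and 110, 131 and 108 RPKM in CoTAC (-0.84 ± 0.17, limma-trend adjusted p = 0.128). Slco1a4, an uptake transporter of organic anions, was at 28.4, 20.9 and 34.7 RPKM against 12.1, 18.8 and 6.90 RPKM (-1.20 ± 0.32, limma-trend adjusted p = 0.226). Both were named after their values were seen. Cyp3a11, the usual PXR readout, was at 659, 579 and 426 RPKM against 440, 418 and 451 RPKM with overlap, and lay above 25% of the Alb level (-0.32 ± 0.22, limma-trend adjusted p = 0.585). Ces1g, a carboxylesterase of a near-identical family also named after its values were seen, was at 177, 150 and 154 RPKM against 83.5, 104 and 91.4 RPKM (-0.78 ± 0.14, limma-trend adjusted p = 0.077).

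The 3 remaining genes that passed were outside the naming rule and were named after their values were seen. The gene model 1810011O10Rik, which RefSeq lists as Tcim, was at 48.3, 42.7 and 44.8 RPKM in CoJAX and 20.1, 20.3 and 15 RPKM in CoTAC (-1.28 ± 0.19, limma-trend adjusted p = 0.0268). Slc9a9, a sodium and proton exchanger of endosomes, was at 2.06, 1.88 and 2.32 RPKM against 0.672, 0.229 and 0.177 RPKM (-1.63 ± 0.26, limma-trend adjusted p = 0.046), and its CoTAC values stood for about 4.2, 1.6 and 1.0 reads. It met the filter of 1 RPKM through CoJAX alone, so it had to differ and its call supports nothing. The histone H4 gene Hist1h4f was at 2.82, 2.41 and 1.63 RPKM in CoJAX and was listed at 0 in the other 9 libraries (limma-trend adjusted p = 0.00469). Each CoJAX value stood for about 2.4 reads, and most histone transcripts carry no poly(A) tail, by which these libraries were selected. Near-identical histone H4 genes could share such reads. This gene too met the filter through CoJAX alone, so that its call supports nothing.

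How firmly each gene passed differed. With each of the 12 libraries left out in turn (limma-trend adjusted p throughout), Wdfy1 passed every time, with log2 differences of 2.13 to 2.32. Hist1h4f also passed each time, which says nothing of its firmness, since the filter fixed its direction. Cyp2b10 (-3.52 to -3.02) and Ide (-0.83 to -0.72) passed 10 times and missed without CoJAX 3 or CoTAC 3, with adjusted p up to 0.0538 and 0.0649. Mid1 (1.66 to 2.05) missed without CoJAX 1, CoJAX 3 or CoTAC 1 (up to 0.0533). Nnt (0.94 to 1.15) missed without CoJAX 1, CoJAX 3, CoTAC 1 or CoTAC 3 (up to 0.115). Cyp26a1 (-3.87 to -2.77) passed 7 times and missed without JAX 3, CoJAX 1, CoJAX 3, CoTAC 1 or CoTAC 3 (up to 0.149). The model 1810011O10Rik (-1.35 to -1.14) missed without those 5 and without CoJAX 2 (up to 0.186). Slc9a9 (-1.88 to -1.48), whose direction the filter fixed as well, passed only without CoTAC 1 or CoTAC 2, Gsta4 (-1.09 to -0.82) only without TAC 1 or CoTAC 2, and Ddah1 (-1.75 to -1.24) only without CoTAC 2. No sign changed in any of these 11 genes.

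The next comparison asked whether the vendor difference of mice housed apart was present in cage mates. TAC against JAX uses 6 other libraries, and in the fit only the pooled spread is shared. Depth was uneven between the vendors here too, with an estimated 1550000 to 2040000 reads in JAX and 1620000 to 3580000 in TAC. The part of depth in an agreement of signs was not tested. Among the same 11416 genes 500 passed there, 4.38%, with 301 higher and 199 lower in TAC. Of these 500 genes 389, or 77.8%, had the same sign between CoTAC and CoJAX, against 63.1% of all genes. The cohoused groups lay fully apart in that direction for 145 of the 500 genes (29%), against 13.8% of all genes. The median size over the 500 genes was 0.73 apart and 0.17 between cage mates in the direction seen apart. For 315 of them the change in the vendor difference had an unadjusted p under 0.05, against 11.4% of all genes. The 500 were picked for their difference apart, which enlarges both the drop and that count. Both comparisons were passed by 6 genes, Wdfy1, Nnt, Ide, Ddah1, Gsta4 and 1810011O10Rik, all with the same sign. These are 54.5% of the genes that passed between cage mates and 1.2% of those that passed apart. With depth as a covariate 134 genes passed apart, of which 100 kept their sign between cage mates. The share of all genes with the same sign in that fit was not counted, so these 100 cannot be set against it. The count apart also rested on single libraries. It was 11 to 91 without JAX 1, JAX 2, JAX 3, TAC 2 or TAC 3, 263 to 300 without CoJAX 1, CoJAX 3 or CoTAC 3, and 2132 without TAC 1. It was 114 with a replicate block, 222 in a robust fit without trend, 770 under quantile normalization and 889 with a clock score as a covariate.

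**Figure D2:**
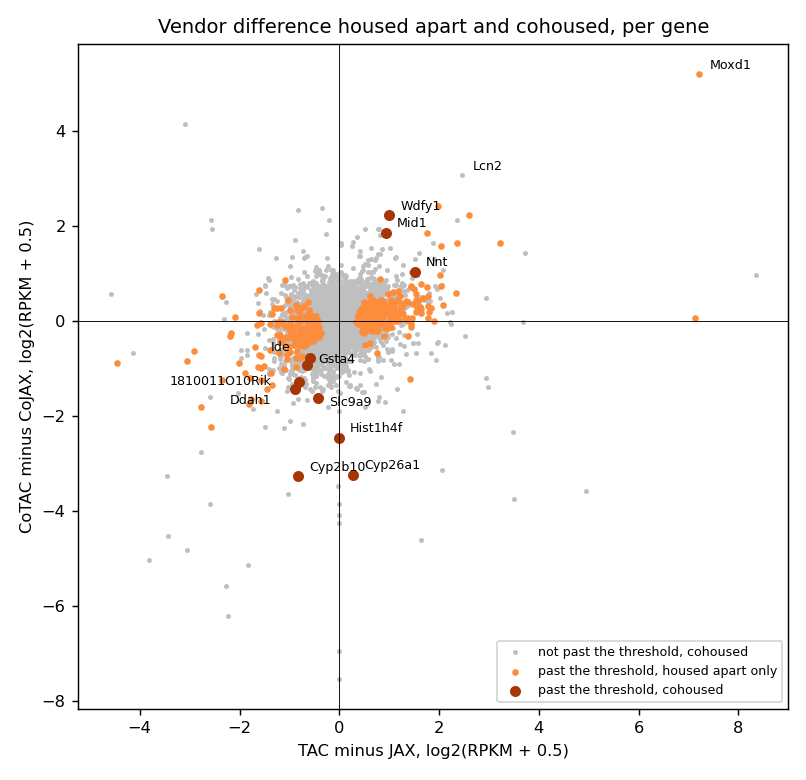
Each point is 1 of 11416 genes, with the TAC minus JAX difference on the x axis and the CoTAC minus CoJAX difference on the y axis, both in log2(RPKM + 0.5). Large points are the 11 genes past the threshold between cage mates, orange points the genes past it only when housed apart, and Cyp26a1 lies near 0 on the x axis (0.28) and at -3.23 on the y axis.

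Whether the vendor difference itself differed between cohoused and separately housed mice was tested in the same fit. Of 11416 genes 0 passed, and the smallest limma-trend adjusted p was 0.155. The count was 1 without JAX 1, JAX 3 or CoJAX 2, 7 without CoTAC 2 and 50 without TAC 1. At an unadjusted p under 0.05 there were 1299 genes, 11.4% of those tested. The 5 genes with the smallest p were Rab30, Hist1h4f, Hspa1b, Rraga and Slc15a4. Rraga, a small GTPase of the amino acid sensing pathway, was at 62.8, 61.6 and 52.1 RPKM in CoJAX and 53.7, 56.5 and 60.8 RPKM in CoTAC, which overlapped. In JAX it was at 30.2, 27.6 and 23.8 RPKM and in TAC at 47.2, 59.2 and 52.7 RPKM. The omega-hydroxylase genes Cyp4a10 and Cyp4a14, targets of PPARA and members of a near-identical family, were named after their values were seen. Cyp4a10 was at 129, 75.1 and 130 RPKM in CoJAX and 67.4, 70.7 and 70.4 RPKM in CoTAC (-0.63 ± 0.31, limma-trend adjusted p = 0.482), whereas JAX held 114, 146 and 147 RPKM and TAC 9.89, 18.4 and 29.1 RPKM. Cyp4a14 was at 129, 23.2 and 134 RPKM in CoJAX and at 51.7, 17.1 and 70.5 RPKM in CoTAC, with overlap, whereas JAX held 135, 192 and 97.9 RPKM and TAC 7.62, 4.78 and 5.17 RPKM. Of 35 tested PPARA targets 0 passed between cage mates, and 11 of them lay above 25% of Alb. The list median was -0.22, and -0.05 under quantile normalization.

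A further group of genes lay just outside the threshold between cage mates and past it apart. They were named after their values were seen. Moxd1, which encodes a monooxygenase-like protein, was at 1.33, 29.8 and 0.342 RPKM in CoJAX and at 150, 93.5 and 164 RPKM in CoTAC. CoJAX 2 stood between the other CoJAX libraries and the CoTAC libraries (5.20 ± 0.98, limma-trend adjusted p = 0.0966). Without CoJAX 2 the difference was 6.74 (limma-trend adjusted p = 0.00027). This setting was picked after the Moxd1 value of CoJAX 2 was seen, so the smaller p supports nothing. Housed apart, JAX held at most 0.423 RPKM against at least 49.1 RPKM in TAC. Capn8, a calpain protease, was at 4.52, 6.98 and 3.29 RPKM against 16.4, 14.7 and 16.4 RPKM (1.65 ± 0.29, limma-trend adjusted p = 0.077). Plcd3, a phospholipase C, was at 0.45, 0.257 and 0.348 RPKM against 5.18, 1.69 and 7.09 RPKM (2.42 ± 0.41, limma-trend adjusted p = 0.0595). Camk2b, a calcium and calmodulin dependent kinase, was at 2.03, 6.02 and 3.42 RPKM against 17.7, 14.6 and 10.5 RPKM (1.85 ± 0.34, limma-trend adjusted p = 0.077). In these 4 genes every CoTAC library lay above every CoJAX library. Plcd3 was under 1 RPKM in every CoJAX library. It met the filter through CoTAC alone, so its separation between cage mates supports nothing. Upp1, a uridine phosphorylase, was lower in every CoTAC library, at 4.45, 4.86 and 3.75 RPKM against 0.790, 0.957 and 1.11 RPKM (-1.74 ± 0.33, limma-trend adjusted p = 0.0966). Bglap3, an osteocalcin-related gene, was at 2.1, 3.61 and 2.44 RPKM against 0.685, 0 and 0 RPKM, a few reads at this depth (limma-trend adjusted p = 0.0593). Bglap3 met the filter through CoJAX alone, so its difference between cage mates supports nothing.

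Amino acid response genes were split. Of 15 tested 0 passed, the list median was -0.01, and at an unadjusted p under 0.05 there were 2 higher and 2 lower. Over all genes the shares at that level were 4.78% higher and 6.21% lower. Asns, asparagine synthetase, was at 9.61, 9.51 and 2.86 RPKM in CoJAX and 30.01, 21.3 and 53.7 RPKM in CoTAC, with no overlap (2.24 ± 0.44, limma-trend adjusted p = 0.128). Mthfd2, a mitochondrial folate enzyme named after its values were seen, was at 1.82, 1.95 and 2.64 RPKM against 6.81, 4.58 and 4.83 RPKM (1.16 ± 0.34, limma-trend adjusted p = 0.269). Ddit3, a stress-induced transcription factor, was at 29.8, 22.2 and 28.7 RPKM against 17.5, 14 and 14.4 RPKM (-0.79 ± 0.21, limma-trend adjusted p = 0.227). Scara5, a ferritin receptor of the iron handling list, was at 18.2, 28.2 and 12.4 RPKM against 66.9, 40.8 and 66.0 RPKM (1.58 ± 0.33, limma-trend adjusted p = 0.133). Of the 20 tested iron genes 0 passed.

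Markers of sinusoidal endothelial cells leaned lower in CoTAC, and the lean came from CoTAC 1 and CoTAC 3. All 16 markers were tested, 0 passed and all 16 values were negative. At an unadjusted p under 0.05, 14 were lower, against 6.21% of all genes. The list median was -0.92, against 0.01 over all genes. Housed apart the TAC minus JAX median of this list was -0.43, with 15 of 16 values negative and 0 passed. The summed level of the list was 353, 254 and 304 RPKM in CoJAX, 119 RPKM in CoTAC 1, 278 RPKM in CoTAC 2 and 116 RPKM in CoTAC 3, and no marker was at 0 throughout. CoTAC 2 therefore lay within the CoJAX range. Oit3, a secreted protein of liver endothelium, was at 23.5, 15.2 and 21.6 RPKM in CoJAX and 4.84, 15 and 4.63 RPKM in CoTAC (-1.43 ± 0.35, limma-trend adjusted p = 0.189). Clec4g, a lectin of the sinusoid, was at 108, 72.5 and 84.9 RPKM against 31.4, 68.3 and 27.4 RPKM (-1.16 ± 0.29, limma-trend adjusted p = 0.207). The receptor Kdr, named after its values were seen as were the next 3 genes, was at 8.25, 6.59 and 7.36 RPKM against 1.42, 9.19 and 1.05 RPKM, and Pecam1 was at 6.48, 7.74 and 9.36 RPKM against 3.12, 6.07 and 2.1 RPKM. The scavenger and hyaluronan receptors Stab2 and Lyve1 leaned less, at -0.34 ± 0.22 and -0.67 ± 0.29. In whole liver, fewer cells of a type and less RNA per cell cannot be told apart.

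Stellate cell and fibroblast markers had a similar order of libraries. Their summed level was 329, 224 and 349 RPKM in CoJAX and 135, 239 and 175 RPKM in CoTAC. Of 15 tested 0 passed, and the median was -0.64. At an unadjusted p under 0.05, 8 were lower and 0 higher, against 6.21% and 4.78% of all genes. Housed apart the TAC minus JAX median was -0.52, with 11 of 15 values negative. Ecm1, a matrix protein, was at 111, 78.7 and 123 RPKM against 39.5, 75.3 and 53.9 RPKM (-0.91 ± 0.24, limma-trend adjusted p = 0.226). Kupffer cell markers did not lean, with a median of -0.09 over 14 tested, 0 passed, and sums of 546 to 691 RPKM (CoJAX) and 521 to 688 RPKM (CoTAC). Hepatocyte markers had a median of -0.28 with 0 of 13 passed, sums of 4710 to 7267 RPKM (CoJAX) and 4663 to 5389 RPKM (CoTAC), and all 13 lay above 25% of Alb. Under quantile normalization the hepatocyte median was 0.02, while that of endothelial markers was -0.97. All 8 tested MHC class II genes had negative values with a median of -0.58, and 0 passed. Housed apart 7 of the 8 were negative, with a TAC minus JAX median of -0.58. How much the endothelial and stellate levels bear on the other differences was not tested.

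**Figure D3:**
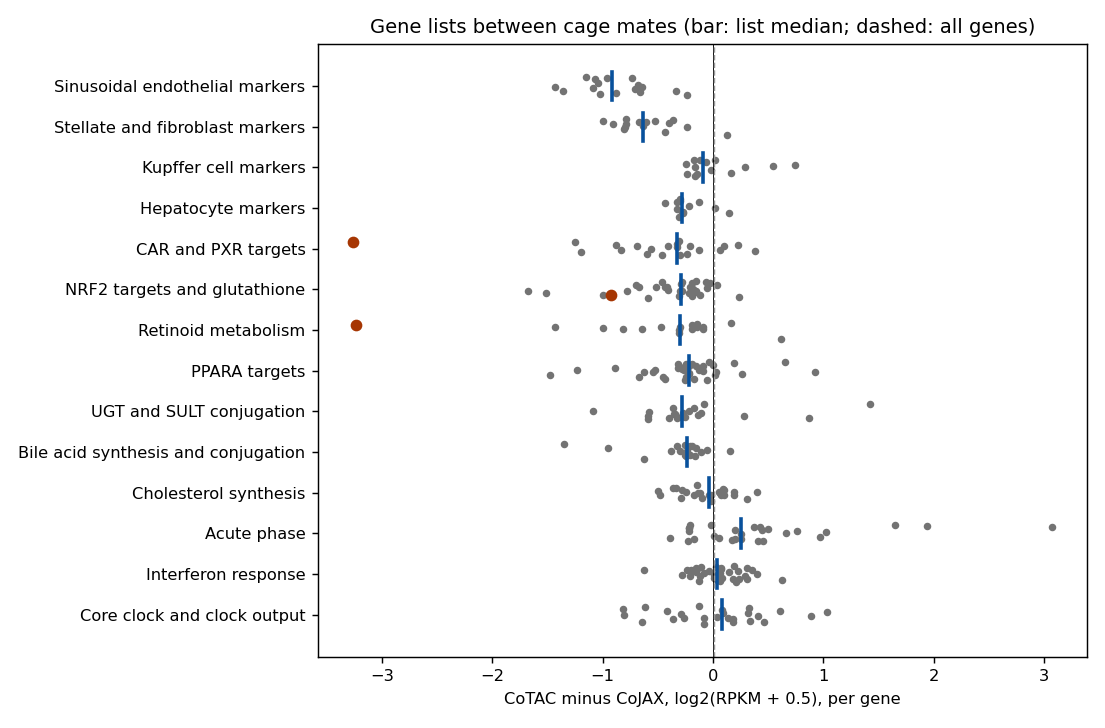
Each grey point is a tested gene of 1 of 14 lists, with its CoTAC minus CoJAX difference in log2(RPKM + 0.5) on the x axis, brown points passed an adjusted p of 0.05, bars mark list medians and the dashed line the median of all genes. Sinusoidal endothelial and stellate markers have the lowest medians shown (-0.92 and -0.64), and acute phase genes the highest (0.25).

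Acute phase genes leaned the other way in the same libraries. Of 28 tested 0 passed, and 6 were higher against 0 lower at an unadjusted p under 0.05. Over all genes 4.78% were higher and 6.21% lower at that level. The list median was 0.25, and 20 of the 28 genes lay above 25% of Alb. Housed apart the TAC minus JAX median of the list was 0.30. Lcn2, the iron-scavenging protein lipocalin, was at 17.1, 27.0 and 18.3 RPKM in CoJAX, 520 RPKM in CoTAC 1, 19.0 RPKM in CoTAC 2 and 537 RPKM in CoTAC 3. CoTAC 2 lay within the CoJAX range, and the difference of 3.08 ± 0.99 did not pass (limma-trend adjusted p = 0.333). Housed apart, Lcn2 was at 21.5, 13.4 and 27.4 RPKM in JAX and 62.1, 227 and 100 RPKM in TAC (limma-trend adjusted p = 0.139). Saa3, a serum amyloid A of a near-identical family, was at 65.6, 69.8 and 48.7 RPKM in CoJAX and 442, 70.6 and 409 RPKM in CoTAC (1.94 ± 0.67, limma-trend adjusted p = 0.344). Orm2, an orosomucoid named after its values were seen, was at 75.6, 51.4 and 49.4 RPKM against 339, 43.0 and 417 RPKM. Saa2 and Socs3, also named after their values were seen, encode another serum amyloid and an inhibitor of cytokine signalling. Saa2 was at 468, 186 and 156 RPKM against 693, 230 and 725 RPKM, and Socs3 at 7.07, 15.7 and 12.1 RPKM against 28.6, 13.9 and 27.4 RPKM. For each of these 5 genes CoTAC 1 and CoTAC 3 were the highest of the 6 libraries. The abundant genes Fga, Fgb and Fgg (fibrinogen), Hp (haptoglobin) and Hpx (hemopexin), named after their values were seen, had differences of -0.23 to -0.21. The median over all genes above 25% of Alb was -0.24, so these values have the shift of abundant genes beside them.

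Without CoTAC 2 the comparison held 70 genes higher in CoTAC (0.613% of those tested) and 175 lower (1.53%), and kept all 11 genes. Of the 16 endothelial markers 12 then passed, all lower, with a list median of -1.37, and of the 28 acute phase genes 8 passed, all higher, with a median of 0.55. Lcn2 was then at 4.66 (limma-trend adjusted p = 0.0009) and Oit3 at -1.95 (limma-trend adjusted p = 0.0013). CoTAC 2 was left out here after its values were known, and the labels give no reason to leave it out. Relative to the mean of the CoJAX libraries, the median endothelial marker was at -1.19 in CoTAC 1, -0.07 in CoTAC 2 and -1.39 in CoTAC 3, and the median acute phase gene at 0.54, -0.36 and 0.55. In CoJAX 3, the deepest library, the median acute phase gene was at -0.23. The 13 hepatocyte markers, all above 25% of Alb, had medians of 0.27, 0.12 and -0.36 in CoJAX and -0.25, -0.38 and -0.19 in CoTAC. As 20 of the 28 acute phase genes also lay above 25% of Alb, the -0.36 of CoTAC 2 has this shift beside it.

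**Figure D4:**
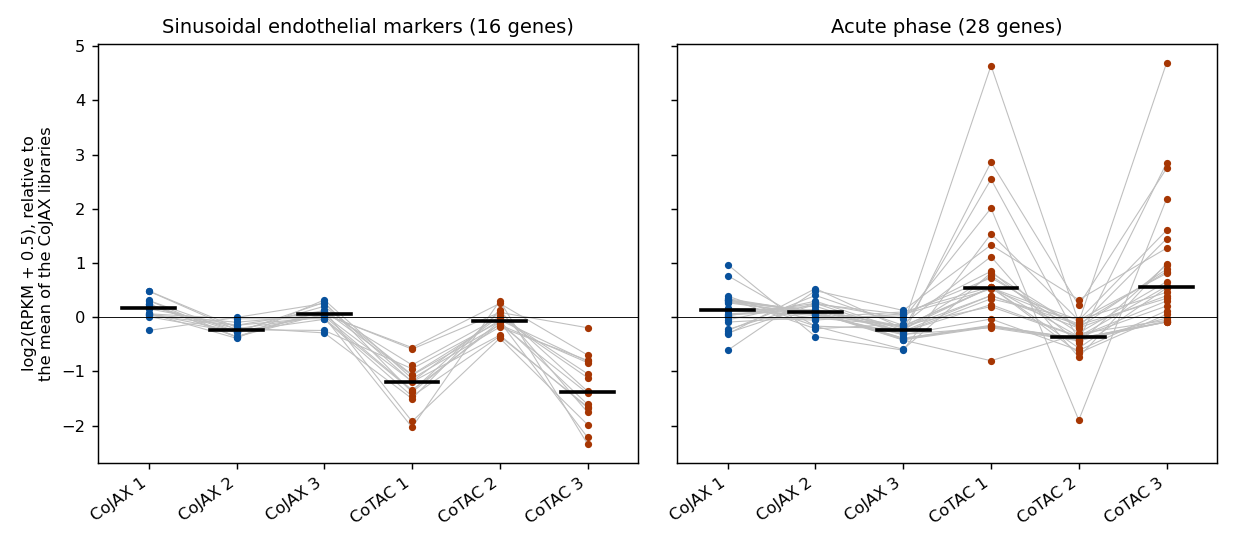
Level of each tested sinusoidal endothelial marker (left, 16 genes) and acute phase gene (right, 28 genes) in the 6 cohoused libraries, in log2(RPKM + 0.5) relative to the mean of the 3 CoJAX libraries, with thin lines joining the points of a gene and bars at the median. CoTAC 1 and CoTAC 3 are low on the left (medians -1.19 and -1.39) and high on the right (0.54 and 0.55), while CoTAC 2 is near the CoJAX libraries on the left (-0.07) and below them on the right (-0.36). Of the 28 acute phase genes 20 lay above 25% of Alb, and the median hepatocyte marker was at -0.38 in CoTAC 2 as well.

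Clock genes varied within both groups, and their levels overlapped between the vendors. Dbp, a clock output factor with a steep daily rhythm in liver, was at 4.90, 144 and 19.4 RPKM in CoJAX and 99.8, 105 and 2.96 RPKM in CoTAC. Arntl, a core activator of the clock that peaks at another time of day, was at 25.3, 1.36 and 22.9 RPKM in CoJAX and 2.76, 3.45 and 22.5 RPKM in CoTAC. Libraries with high Dbp (CoJAX 2, CoTAC 1 and CoTAC 2) had low Arntl, and the remaining 3 the reverse. Both groups held libraries of each kind, and the differences of 0.41 ± 2.12 and -0.64 ± 1.17 did not pass (limma-trend adjusted p = 0.953 and 0.839). Of 25 tested clock genes 0 passed. Per2 and Nr1d1, which repress the clock, were at 0.18 ± 0.49 and -0.41 ± 0.43. Cyp7a1, the rate-limiting enzyme of bile acid synthesis and one with a daily rhythm, was at 9.84, 63.3 and 9.10 RPKM in CoJAX and 10.4, 19.3 and 7.39 RPKM in CoTAC. CoJAX 2 was the highest for Cyp7a1 and Dbp alike. With a clock score as a covariate 12 genes passed between cage mates, 9 of the 11 among them, without Gsta4 and Slc9a9.

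**Figure D5:**
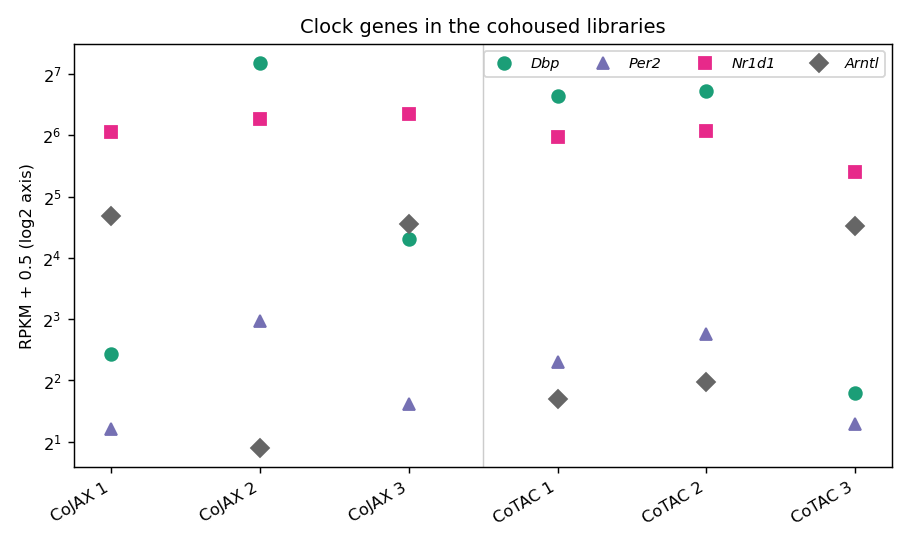
RPKM + 0.5 on a log2 axis for 4 clock genes in the 6 cohoused libraries, with the vertical line between CoJAX and CoTAC. Dbp is above 99 RPKM in CoJAX 2, CoTAC 1 and CoTAC 2 and below 20 RPKM in the other 3, and Arntl has the opposite order.

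Other metabolic and immune lists held no gene past the threshold between cage mates. For 18 bile acid synthesis genes the median was -0.24, and 11 of them lay above 25% of Alb. Akr1d1, which reduces bile acid intermediates, was at 105, 91.0 and 104 RPKM in CoJAX and 37.5, 68.5 and 52.5 RPKM in CoTAC, with no overlap (-0.96 ± 0.22, limma-trend adjusted p = 0.167). Cyp8b1, which sets the share of cholic acid, was at 342, 281 and 257 RPKM against 188, 218 and 272 RPKM, with overlap (-0.38 ± 0.22, limma-trend adjusted p = 0.536). The medians were -0.04 over 25 cholesterol synthesis genes, -0.18 over 27 lipogenesis genes and -0.22 over 24 genes of fatty acid oxidation. Under quantile normalization these 3 medians were 0.09, -0.07 and -0.00047, and that of bile acid synthesis was -0.03, so that the sign of cholesterol synthesis turned. Fitm1, which packages fat into droplets, was at 149, 99.1 and 153 RPKM against 53.3, 95.4 and 54.0 RPKM (-1.01 ± 0.21, limma-trend adjusted p = 0.135), and passed without CoTAC 2 (-1.28, limma-trend adjusted p = 0.0032). Cd36, a fatty acid transporter, was at 20.3, 12.7 and 22.6 RPKM against 5.02, 10.7 and 4.21 RPKM (-1.48 ± 0.34, limma-trend adjusted p = 0.168), and passed without CoTAC 2 at -1.86 (limma-trend adjusted p = 0.013). In both, CoTAC 2 was again the CoTAC library nearest to CoJAX, and it was left out after its values were known. Of 20 conjugation genes of the UGT and SULT families 0 passed and the median was -0.28, or -0.09 under quantile normalization. At an unadjusted p under 0.05 they held 2 higher and 6 lower genes, against 4.78% and 6.21% of all genes.

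Among 37 interferon response genes 0 passed, none reached an unadjusted p of 0.05, and the median was 0.04. Zbp1, a sensor of nucleic acids, was at 14.5, 22.1 and 16.8 RPKM in CoJAX and 50.2, 12 and 33.4 RPKM in CoTAC, with CoTAC 2 the lowest of all 6 (0.62 ± 0.39, limma-trend adjusted p = 0.554). Among 21 microbial sensing and cytokine genes 0 passed. An unadjusted p under 0.05 was reached by 1 higher and 1 lower gene, against 4.78% and 6.21% of all genes. The higher one, Nfkbiz, a cofactor of NF-kappaB, was at 2.73, 3.19 and 2.51 RPKM against 4.84, 4.03 and 6.37 RPKM, with no overlap (0.74 ± 0.27, limma-trend adjusted p = 0.376). Of 15 heat shock genes 0 passed and all 15 values were negative, with a median of -0.24, or -0.15 under quantile normalization. The 20 ribosomal protein genes and the 20 oxidative phosphorylation genes had medians of -0.24 and -0.28 with 0 passed, and 18 of 20 in each list lay above 25% of Alb. Under quantile normalization these 2 medians were 0.02 and -0.06, and with depth as a covariate -0.03 and -0.14.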

How the data were processed

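Poly(A) RNA of whole mouse liver was sequenced in 12 libraries. The authors deposited 1 table of RPKM values with a column per library. The submitters' processing notes name Bowtie 1.0.0, Cuffdiff 2.1.1 and the build mm9 but say nothing of what each was used for. Annotation, duplicate handling and strandedness were not given in the sources used here, so the reads of antisense or overlapping genes may be mixed. RPKM is not a count, so no count test was run.

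Of 23936 lines 27 carried a date number in place of a symbol and were left out. Library pairs with identical values numbered 0. Reads were estimated from the steps between low values and transcript lengths of another annotation, so they are approximate. A limma-trend model (limma 3.58.1, R 4.3.3) was fitted to log2(RPKM + 0.5) of all 12 libraries with 4 group means and no block, two-sided, with Benjamini-Hochberg adjustment. The log2 scale understates changes of low genes. An exact permutation test of 3 against 3 cannot go below 0.1 for 1 gene. In data simulated for CoTAC against CoJAX, 200 of 11416 genes were altered. Of those altered by 1 on the log2 scale 65% were recovered, and of those altered by 2 89%. Of 165 calls 11 were false. The simulated noise was drawn for each gene on its own, with no shift shared by the genes of a library. These rates therefore need not hold for the real libraries.

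Genes were named by a rule: the 15 largest changes each way among those that passed without overlap and with a mean of at least 2 RPKM, unnamed gene models left out, for each list at most 4 members that passed, or else its 2 smallest p, the 5 with the smallest p for the change in the vendor difference, and a few fixed genes. The genes, lists and rules were chosen with earlier results of these data known. Lists are described by counts and medians and were not tested as sets. Members of the Mup, Serpina1, Saa, Cyp2b, Cyp2c, Cyp3a, Cyp4a, Ugt1a, H2, Hba, Hbb, Ces, Gsta and Gstm families share near-identical sequence and are uncertain. Promoter windows and the name Tcim come from RefSeq annotation, and transcript lengths from GENCODE annotation. Both are of another build than mm9, and coordinates of the 2 builds were not mixed. Alternatives changed the pseudocount, the filter, the scaling, the libraries fitted and the terms of the model.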

Additional observations from a re-analysis of the deposited data

Results flagged for a closer look

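For 9 of the 125 genes examined (7.2%) the vendor difference ran in opposite directions in cohoused and in separately housed mice, with groups that did not overlap in either housing. The same held for 129 of all 11416 genes (1.13%). Hspa1b, Rab30 and Slc15a4 were examined because they had some of the smallest p for this very change. Insig1, Ppp1r3c, Chordc1, Eif2s3y, Gls2 and Alas2 were examined for having the smallest cohoused p of their lists. Such a choice favours groups that do not overlap, so the larger share among the genes examined supports nothing. For these 9 genes the change in the difference (cohoused minus apart, log2) did not pass (limma-trend adjusted p of 0.155 to 0.323), nor did the cohoused difference itself.

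In 8 of them the Taconic value was the lower one among cage mates and the higher one apart. The heat shock chaperone gene Hspa1b was at 21.5, 10.6 and 15.5 RPKM in CoJAX and 6.89, 6.36 and 5.46 RPKM in CoTAC, against 16.7, 17.1 and 8.18 RPKM in JAX and 39.0, 24.9 and 49.0 RPKM in TAC, a change of -2.65 ± 0.45. Chordc1, a cochaperone, changed by -1.07 ± 0.22. Ppp1r3c, a glycogen-targeting subunit of protein phosphatase, was at 69.5, 62.7 and 49.2 RPKM in CoJAX and 32.5, 19.8 and 48.5 RPKM in CoTAC, against 24.1, 38.8 and 32.3 RPKM in JAX and 50.3, 88.5 and 67.6 RPKM in TAC, a change of -2.01 ± 0.42. Slc15a4, a lysosomal transporter of histidine and peptides, changed by -1.01 ± 0.18, and Insig1, which holds back sterol synthesis, by -0.71 ± 0.17. The Y-linked translation factor gene Eif2s3y changed by -0.70 ± 0.25, the glutaminase gene Gls2 by -0.46 ± 0.15 and the heme synthesis gene Alas2 by -0.46 ± 0.15.

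Rab30, a small GTPase of the Golgi, ran the other way, at 9.86, 12.3 and 8.85 RPKM in CoJAX and 21.7, 15.9 and 19.7 RPKM in CoTAC, against 11.3, 12.8 and 12.4 RPKM in JAX and 7.43, 4.33 and 5.05 RPKM in TAC, a change of 1.94 ± 0.28.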

How the results depend on the processing

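Between cage mates 11 genes passed. The count was 7 with a pseudocount of 0.1, 1 with the 6 cohoused libraries alone, 6 with depth as a covariate and 6 in a robust fit without trend, and 3 to 245 with each library left out in turn. The fit with a replicate block gave 8, of which 7 were among the 11. Same-numbered CoJAX and CoTAC libraries deviated with correlations of -0.01, 0.01 and 0.10 and 0 of 6 correlated best with its own number, so the numbers were not taken to pair them. The block changed the count apart, and 114 genes passed there. For TAC against JAX 500 genes passed, 770 under quantile normalization, 134 with depth, 889 with a clock score, 222 in the robust fit and 11 to 2132 with each library left out. For the change in the vendor difference 0 passed, 2 with no filter on level, 4 with depth, 1 in the robust fit and 0 to 50 with each library left out. Of the 11 genes, 6 kept their call with depth (Cyp2b10, Ddah1, Hist1h4f, Ide, Mid1 and Wdfy1), while Cyp26a1 was at -3.09 (limma-trend adjusted p = 0.095) and Nnt at 0.97 (limma-trend adjusted p = 0.0586). Signs turned for genes that had not passed. Quantile normalization gave 0.0089 for Cyp2e1, 0.021 for Alb and 0.027 for Rraga. Dbp was at -1.06 with depth and -0.45 with the clock score, and Per2 at -0.037 and -0.0033. With each library left out Cyp7a1 spanned -1.10 to 0.26, Dbp -0.69 to 2.04, Arntl -1.88 to 0.015, Per2 -0.18 to 0.71 and Rraga -0.13 to 0.0051. The cause was not tested.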
